A study of Mus musculus with 9 samples.

Results

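The ERK feedback genes described here are Dusp4, Dusp5, Dusp6, Spry1, Spry2, Spry4, Spred1, Etv1, Etv4 and Etv5. They were found by matching their symbols to the Entrez gene IDs of a gene-level count table, and made up 10 of its 24594 genes. RNA was measured by stranded, polyA-enriched sequencing in 9 libraries of BG2 cells, a mouse line labelled as mammary epithelial and derived from a mammary tumour. Clone 1 and clone 2 carried a CRISPR knockout of Sox10, a transcription factor known from neural crest and from progenitors of the mammary gland, and the control was a wild-type bulk population. Each group had 3 libraries, called technical replicates in the labels. All 3 groups share the MMTV-NeuIresCre strain background, a transgene in which the mouse mammary tumour virus promoter drives the Neu oncogene together with Cre, so the control also carries the oncogene. In the counts the control is headed NTC and the clones sgKO1 and sgKO2, while the titles call the control wild type and do not explain NTC. Each knockout line is 1 clone, the library names of both clones carry the same guide name (sgRNA2), and the control was not cloned. Effects of the knockout and of picking a clone therefore cannot be told apart within a clone, and the p-values cover only how far these libraries spread, which may be technical.

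Receptor tyrosine kinases such as ERBB2, the receptor that Neu encodes, activate RAS, which switches on the kinases RAF, MEK and ERK in turn. ERK enters the nucleus and raises transcription of genes whose products restrain the same pathway. Among these, the DUSP phosphatases remove the activating phosphates from ERK, and Sprouty and SPRED proteins act upstream, between receptor and RAF. The PEA3 group of ETS transcription factors (Etv1, Etv4 and Etv5) are also induced by the pathway, are held down by the repressor Capicua, and are known from branching of the mammary gland and from Neu-driven mammary tumours. RNA of these genes is often read as a record of pathway output, but ERK phosphorylation was not measured here.

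RefSeq promoter windows on GRCm38.p6, from 250 bases before to 50 bases after an annotated start, were found for 7 of the 10 members. Dusp4, Spry4 and Etv4 had no window in that table, and Etv1 and Etv5 had 2 each. A member was counted once if any of its windows matched, while the shares of all windows count every window singly. Both strands were searched for the Capicua octamers (TGAATGAA, TGAATGGA, TCAATGAA or TCAATGGA), the AP-1 site TGANTCA and the cyclic AMP response element TGACGTCA. The Sox core ACAAAG and an extended form of the ETS site, CCGGAAG, were searched for too. Other forms of the ETS site were not searched for. A Capicua octamer stood in windows of 2 of the 7 members, Dusp6 and Spry2, and in 3.84% of all 32851 windows. A Sox core stood in windows of 2 members, Spry2 and Etv5, and in 18.7% of all windows. The ETS form CCGGAAG, the AP-1 site and the cyclic AMP response element were in 0 of the 7, against 8.86%, 7.81% and 1.79% of all windows. The windows with a match are shown 5′ to 3′ on the strand of the gene, because they hold the letters through which ERK-regulated repression or a Sox factor could be looked for. Capitals mark the Capicua octamers in Dusp6, an octamer and a Sox core in Spry2, and a Sox core in Etv5. A match is a description of the letters and does not show binding. The Dusp6 window is chr10:99262981-99263280 on the plus strand, the Spry2 window is chr14:105896770-105897069 on the minus strand, and the Etv5 window, the second of its 2, is chr16:22438319-22438618 on the minus strand.
Dusp6: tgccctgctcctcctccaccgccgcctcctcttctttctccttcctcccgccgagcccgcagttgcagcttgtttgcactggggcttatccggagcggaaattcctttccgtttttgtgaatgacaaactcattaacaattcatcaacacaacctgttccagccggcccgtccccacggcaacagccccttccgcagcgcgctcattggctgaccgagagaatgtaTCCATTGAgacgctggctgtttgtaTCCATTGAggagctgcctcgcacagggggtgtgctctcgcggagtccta
Spry2: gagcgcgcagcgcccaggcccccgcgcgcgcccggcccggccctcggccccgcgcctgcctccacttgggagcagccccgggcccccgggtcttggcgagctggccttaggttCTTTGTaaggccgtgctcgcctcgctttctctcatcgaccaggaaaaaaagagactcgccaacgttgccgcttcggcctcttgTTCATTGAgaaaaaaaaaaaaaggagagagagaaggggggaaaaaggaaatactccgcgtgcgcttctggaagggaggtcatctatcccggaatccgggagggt
Etv5: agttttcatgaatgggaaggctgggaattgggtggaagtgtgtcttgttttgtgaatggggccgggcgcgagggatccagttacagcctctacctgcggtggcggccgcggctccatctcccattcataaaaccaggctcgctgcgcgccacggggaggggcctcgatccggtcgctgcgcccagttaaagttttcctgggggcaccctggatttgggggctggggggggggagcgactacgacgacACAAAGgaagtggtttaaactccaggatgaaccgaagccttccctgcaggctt
In Dusp6 the octamers began 24 bases before the start and at base 2 of the transcript. Both read TCCATTGA on the strand of the gene, which is TCAATGGA on the other strand. The Spry2 octamer began 54 bases before the start and read TTCATTGA, which is TCAATGAA on the other strand. Its Sox core began 137 bases before the start and read CTTTGT, which is ACAAAG on the other strand. The Sox core of Etv5 began 3 bases before its start.

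Libraries held 65805296 to 83282841 counts, so that 3 counts, the floor used for a library, correspond to 0.0360 to 0.0455 CPM (counts relative to library size). Sox10 had 0 to 6 counts in the libraries of clone 1 and 0 to 2 in those of clone 2, against 16660 to 26038 in control libraries. Replicate 1 stood apart from the other libraries in every group. The SD over genes of the log2 difference between libraries was 0.179 to 0.251 for pairs with replicate 1, and 0.116 to 0.129 between replicates 2 and 3. Luminal epithelial markers were lower in the clones than in the control, but not all were lost. Krt8 averaged 666 CPM in clone 1 and 787 CPM in clone 2, against 2393 CPM in the control. Krt18 averaged 480 CPM in clone 1 and 641 CPM in clone 2, against 2305 CPM in the control. Of 7 markers, 3 were above 1 CPM in clone 1, 3 in clone 2 and 7 in the control, and their summed level was 1109 to 1260 CPM in clone 1, 1362 to 1543 CPM in clone 2 and 6222 to 7446 CPM in the control. Cldn3 was at 0 counts in clone 1 and Epcam in clone 2. Of 5 basal markers, 2 were above 1 CPM in clone 1, 2 in clone 2 and 1 in the control, with sums of 22.7 to 24.2 CPM, 134.5 to 145.4 CPM and 3.24 to 4.93 CPM. Fibroblast markers summed to 177 to 180 CPM in clone 1, 107 to 116 CPM in clone 2 and 9.16 to 10.6 CPM in the control, with Lum and Thy1 at 0 in all 3 groups. Most of that sum was Pdgfra (172 CPM in clone 1, 107 CPM in clone 2 and 7.83 CPM in the control), while the collagen gene Col1a2 averaged 1.69 CPM in clone 1, 1.85 CPM in clone 2 and 0.680 CPM in the control. Immune markers summed to 9.40 to 11.2 CPM in clone 1, 43.4 to 45.9 CPM in clone 2 and 7.14 to 12.0 CPM in the control, with Cd3e at 0 throughout and Ptprc at 0 in both clones; Cd68 gave most of it, with 9.80 CPM in clone 1, 38.6 CPM in clone 2 and 10.1 CPM in the control. The sums of 4 endothelial markers were 15.3 to 17.3 CPM in clone 1, 0.504 to 0.953 CPM in clone 2 and 0 to 0.108 CPM in the control, and Kdr alone averaged 16.2 CPM in clone 1 while Pecam1 averaged 0.0270 CPM. Those of 4 adipocyte markers were 3.44 to 4.37 CPM in clone 1, 7.80 to 9.79 CPM in clone 2 and 0.554 to 0.729 CPM in the control, with Cidec at 0 throughout and nearly all of the sum from Fabp4 (3.88 CPM in clone 1, 8.63 CPM in clone 2 and 0.603 CPM in the control). The part of these marker shifts in the results below was not tested. In such bulk RNA, fewer cells expressing a gene and less of its RNA per cell cannot be told apart.

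The first comparison asked which feedback genes differed from the control in each knockout clone. Levels are CPM scaled by TMM, and a difference was called at an adjusted p under 0.05 (edgeR quasi-likelihood test, Benjamini-Hochberg over all 13928 genes tested, the 10 members among them). In clone 1, 8 of the 10 members fell and 2 rose, against a background of 38.6% of all genes called lower and 37.9% called higher. In clone 2, 5 fell, 3 rose and 2 did not pass the test, against 37.1% of all genes lower and 37.3% higher. Dusp5, Dusp6, Etv1, Etv4 and Etv5 fell in both clones, which is 5 of 10, where 29.4% of all genes did. Spry1 and Spred1 rose in both, 2 of 10, where 28.7% of all genes did. Dusp4 was called in opposite directions, 1 of 10 against 4.79% of all genes. The median log2 fold change of the members was -0.91 in clone 1 and -0.23 in clone 2, where that of all genes tested was 0.00248 and -0.00267. Their quartiles over all genes ran from -0.62 to 0.63 in clone 1 and from -0.59 to 0.58 in clone 2. Since so many genes were called in each direction, each call is given below with its size.

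**Figure D1:**
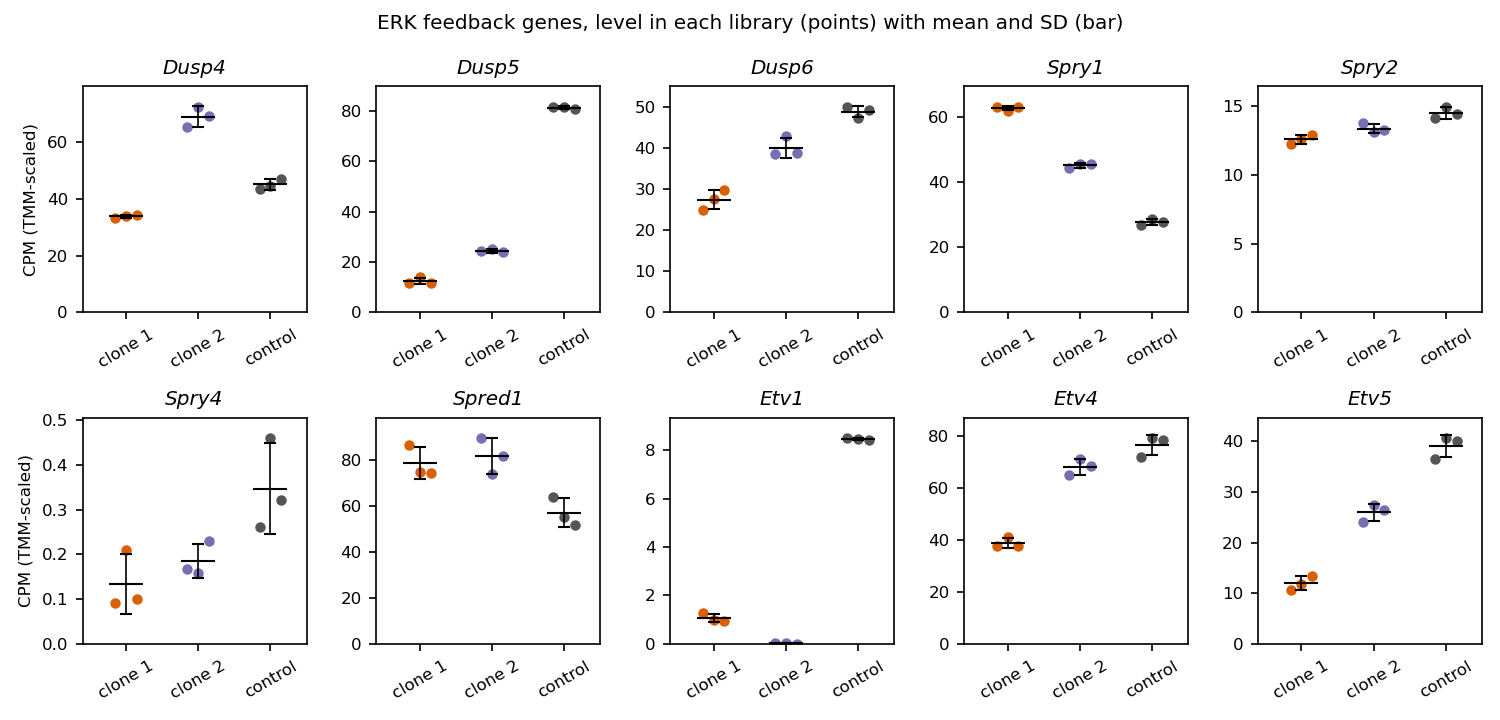
Level of each of the 10 feedback genes in TMM-scaled CPM (linear axes from 0, 1 panel per gene) in clone 1, clone 2 and the control, from left to right; points are the 3 libraries, long bars their means and error bars 1 SD. Dusp5 averaged 12.5 and 24.5 CPM in clones 1 and 2, against 81.3 CPM in the control, and Spry1 averaged 62.6 and 45.1 CPM against 27.7 CPM.

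A stricter test asked for changes of more than 2-fold (glmTreat at a log2 fold change of 1). It called 4 of the 10 members in clone 1, where it called 25.7% of all genes. These were Dusp5, Etv1 and Etv5, which fell, and Spry1, which rose. In clone 2 it called Dusp5 and Etv1, both lower, 2 of 10 where 24.3% of all genes were called.

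Of the 3 DUSP members, Dusp5 showed the greatest fall in either clone. Dusp5, at chr19:53529145-53541809 on the plus strand (GRCm38, as for all gene positions below), encodes a nuclear phosphatase specific for ERK. Its level was 11.9, 14.0 and 11.6 CPM in clone 1 and 24.2, 25.3 and 24.0 CPM in clone 2, against 81.6, 81.7 and 80.6 CPM in the control. All 6 knockout libraries lay below all 3 control libraries, and the clones did not overlap each other. The fall was 6.51-fold in clone 1 (log2 fold change -2.70 ± 0.07 SE, adjusted p = 4.48e-11) and 3.32-fold in clone 2 (-1.73 ± 0.07, adjusted p = 1.31e-09). An annotated antisense gene, AC137853.2, overlaps Dusp5 exons, and since the sources used here do not say how strand was counted, reads from both cannot be told apart.

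Dusp6 encodes a cytoplasmic phosphatase of ERK and lies at chr10:99263231-99267489 on the plus strand. Its libraries held 25.0, 27.5 and 29.7 CPM in clone 1 and 38.6, 42.9 and 38.7 CPM in clone 2, against 50.1, 47.4 and 49.2 CPM in the control. The 3 groups did not overlap. Dusp6 fell 1.78-fold in clone 1 (log2 fold change -0.83 ± 0.07, adjusted p = 8.90e-07) and 1.22-fold in clone 2 (-0.29 ± 0.07, adjusted p = 0.00361).

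Dusp4 parted from Dusp5 and Dusp6 in its direction against the control in clone 2 only. Its product is a nuclear phosphatase that acts on ERK and other MAP kinases, and the gene lies at chr8:34807610-34819894 on the plus strand. It had 33.1, 34.0 and 34.1 CPM in clone 1 and 65.0, 72.4 and 69.2 CPM in clone 2, against 43.6, 44.4 and 47.0 CPM in the control. Clone 1 lay below the control and clone 2 above it, without overlap. Dusp4 fell 1.33-fold in clone 1 (log2 fold change -0.41 ± 0.06, adjusted p = 4.27e-05) and rose 1.53-fold in clone 2 (0.61 ± 0.06, adjusted p = 1.49e-06).

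Among the Sprouty and SPRED genes, whose products restrain signalling between the receptor and RAF, Spry1 and Spred1 rose in both clones. Spry1, at chr3:37639947-37644599 on the plus strand, had 62.9, 61.8 and 63.1 CPM in clone 1 and 44.2, 45.5 and 45.5 CPM in clone 2, against 26.9, 28.5 and 27.6 CPM in the control. The groups did not overlap, and the spread within a group was at most 0.800 CPM (SD). Spry1 rose 2.26-fold in clone 1 (log2 fold change 1.18 ± 0.05, adjusted p = 1.50e-09) and 1.63-fold in clone 2 (0.70 ± 0.05, adjusted p = 1.38e-07). Gm42922, a predicted gene on the opposite strand, overlaps Spry1 exons, with the same limit as for Dusp5.

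Spred1 lies at chr2:117121071-117182279 on the plus strand, and its product brings the RAS inhibitor neurofibromin to the membrane. It had 86.6, 74.9 and 74.6 CPM in clone 1 and 89.6, 74.0 and 82.0 CPM in clone 2, against 64.2, 55.3 and 51.9 CPM in the control. Replicate 1 was the highest library of each group. Both clones lay above the control, and they overlapped each other. The rise was 1.38-fold in clone 1 (log2 fold change 0.46 ± 0.10, adjusted p = 0.000976) and 1.43-fold in clone 2 (0.52 ± 0.10, adjusted p = 0.000434).

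Spry2 and Spry4 gave small or poorly measured differences. Spry2, the gene of another Sprouty protein, lies at chr14:105891947-105896819 on the minus strand. It had 12.3, 12.6 and 12.9 CPM in clone 1 and 13.8, 13.1 and 13.3 CPM in clone 2, against 14.1, 15.0 and 14.5 CPM in the control. The knockout libraries all lay below the control ones, by little. Spry2 fell 1.15-fold in clone 1 (log2 fold change -0.21 ± 0.07, adjusted p = 0.0182), and in clone 2 its log2 fold change of -0.12 ± 0.07 missed the threshold (adjusted p = 0.140). Clone 1 no longer passed without control replicate 2 (-0.19, adjusted p = 0.0545) or without clone 1 replicate 1 (-0.18, adjusted p = 0.0634).

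Spry4, at chr18:38586247-38601347 on the minus strand, was the least abundant member but for Etv1 in clone 2. Its libraries held 6, 16 and 7 counts in clone 1 and 14, 12 and 18 counts in clone 2, against 18, 34 and 26 counts in the control. Its mean level was 0.134 ± 0.0662 CPM in clone 1 and 0.186 ± 0.0386 CPM in clone 2, against 0.347 ± 0.102 CPM in the control (SD, n = 3 each). Scaled for depth, the knockout libraries lay below the control ones, and the clones overlapped. Spry4 fell 2.54-fold in clone 1 (log2 fold change -1.35 ± 0.42, adjusted p = 0.0131). The value in clone 2 was -0.90 ± 0.40 (adjusted p = 0.0610). At these counts 1 library decided either call. That of clone 1 was lost without control replicate 2 (-1.10, adjusted p = 0.0597), clone 1 replicate 1 (-1.14, adjusted p = 0.0543) or clone 1 replicate 3 (-1.17, adjusted p = 0.0526), and clone 2 passed without control replicate 1 (-1.09, adjusted p = 0.0474).

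All 3 genes of the PEA3 group of ETS factors fell in both clones, by amounts that differed widely. Etv1, at chr12:38780082-38870483 on the plus strand, had 84, 76 and 66 counts in clone 1 and 3, 2 and 0 counts in clone 2, against 588, 627 and 681 counts in the control. These correspond to 1.27, 0.997 and 0.946 CPM in clone 1 and 0.0360, 0.0265 and 0 CPM in clone 2, against 8.49, 8.48 and 8.42 CPM in the control. The library with 0 counts allows a level of up to 0.0383 CPM. Clone 1 kept a low level, and every clone 2 library was at or under the floor of 3 counts. The fall in clone 1 was 7.90-fold (log2 fold change -2.98 ± 0.18, adjusted p = 3.75e-08). In clone 2 the 5 counts over 3 libraries, against 1896 in the control, give a level 401-fold lower, with a 95% counting interval of 172 to 1237 (adjusted p = 3.96e-10), an interval that covers counting error only.

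Etv5, at chr16:22381313-22439570 on the minus strand, had 10.7, 11.9 and 13.4 CPM in clone 1 and 24.1, 27.5 and 26.4 CPM in clone 2, against 36.5, 40.7 and 40.1 CPM in the control. The groups did not overlap, and clone 2 lay between clone 1 and the control. Etv5 fell 3.26-fold in clone 1 (log2 fold change -1.71 ± 0.09, adjusted p = 1.17e-08) and 1.50-fold in clone 2 (-0.59 ± 0.09, adjusted p = 8.50e-05).

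Etv4, which encodes PEA3 itself and lies at chr11:101769747-101785310 on the minus strand, had 37.6, 41.1 and 37.7 CPM in clone 1 and 64.9, 71.2 and 68.4 CPM in clone 2, against 72.2, 79.3 and 78.4 CPM in the control. Clone 1 was far below the other groups, while the highest clone 2 library was close to the lowest control library. Etv4 fell 1.97-fold in clone 1 (log2 fold change -0.98 ± 0.06, adjusted p = 4.98e-08) and 1.12-fold in clone 2 (-0.17 ± 0.06, adjusted p = 0.0262). Clone 2 no longer passed without control replicate 2 (-0.15, adjusted p = 0.0893), control replicate 3 (-0.16, adjusted p = 0.0704), clone 2 replicate 1 (-0.13, adjusted p = 0.101) or clone 2 replicate 3 (-0.17, adjusted p = 0.0646).

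**Figure D2:**
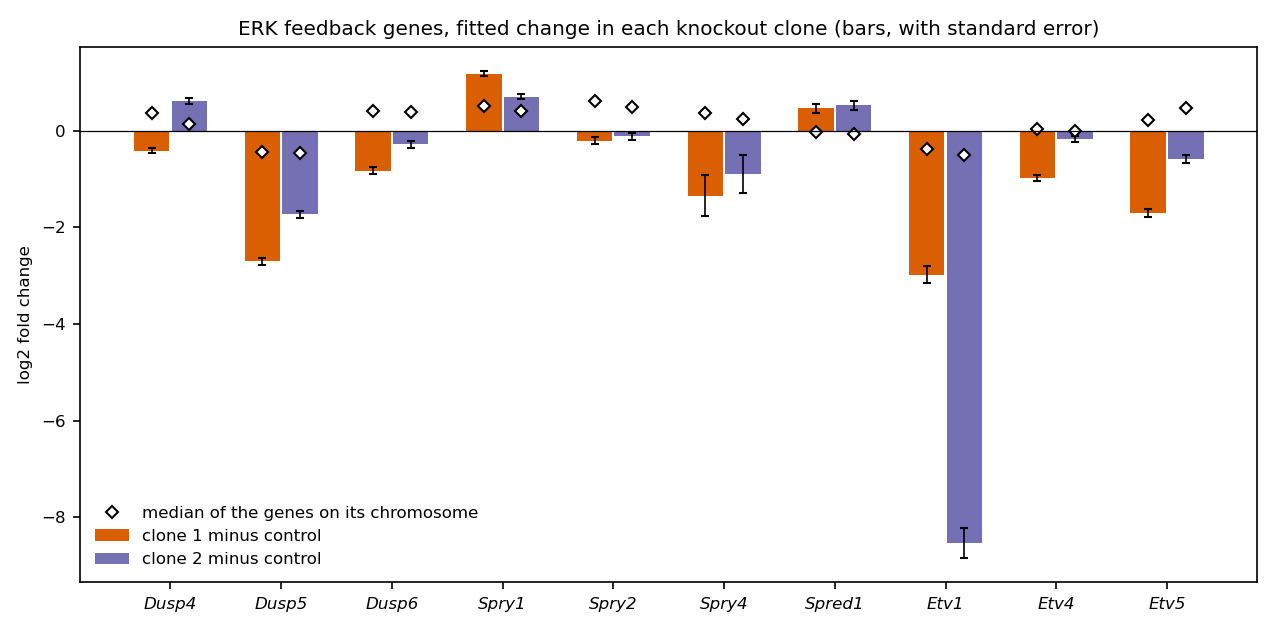
Fitted log2 fold change of each feedback gene against the control (vertical axis) in clone 1 and clone 2 (bars, with error bars of 1 SE); diamonds are the medians of the tested genes on the chromosome of the gene. Dusp4 lies on opposite sides of 0 (-0.41 in clone 1 and 0.61 in clone 2), Spry1 and Spred1 lie above 0 in both clones, and the fitted value of Etv1 in clone 2 (-8.54) rests on 5 counts.

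The clones were then compared with each other, since both are labelled as the same knockout. Clone 2 was higher than clone 1 for 5 of the 10 members (30.1% of all genes tested were) and lower for 2 (27.5% of all genes). The 5 higher ones were Dusp4, with 2.04-fold more RNA in clone 2 (log2 difference 1.03 ± 0.06, adjusted p = 7.93e-08), Dusp5, Dusp6, Etv4 and Etv5. The log2 difference between clone 2 and clone 1 was 0.97 ± 0.07 for Dusp5 (adjusted p = 7.86e-07), 0.55 ± 0.07 for Dusp6 (adjusted p = 6.95e-05), 0.81 ± 0.06 for Etv4 (adjusted p = 8.88e-07) and 1.12 ± 0.09 for Etv5 (adjusted p = 1.45e-06). Spry1 ran the other way, at -0.47 ± 0.05 (adjusted p = 9.54e-06). Etv1 was 50.6-fold lower in clone 2 than in clone 1, from 5 counts against 226 (95% counting interval 21.4 to 157, adjusted p = 3.43e-07). Spry2, Spry4 and Spred1 did not pass this test, with differences of 0.09 ± 0.07, 0.45 ± 0.45 and 0.06 ± 0.10. Beyond a 2-fold difference only Etv1 was called, 1 of 10 where 8.52% of all genes were.

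Levels of different genes were set side by side per kilobase of annotated exon (RPKM, GENCODE exon unions). In clone 1 the order was Spry1 (21.5 RPKM), then Etv4 (12.5), Dusp4 (12.3) and Spred1 (11.6), whose neighbours overlap between libraries, then Dusp6 (8.75), Spry2 (6.04), Dusp5 (5.04), Etv5 (2.92), Etv1 (0.0806) and Spry4 (0.0281). In clone 2 it was Dusp4 (25.1 RPKM), Etv4 (22.0), Spry1 (15.5), Dusp6 (12.8) overlapping Spred1 (12.1), Dusp5 (9.90), Spry2 (6.42) overlapping Etv5 (6.34), Spry4 (0.0390) and Etv1 (0.00157). In the control Dusp5 led (32.9 RPKM), followed by Etv4 (24.7), Dusp4 (16.4) overlapping Dusp6 (15.6), then Spry1 (9.53), Etv5 (9.53) and Spred1 (8.42), whose neighbours overlap, Spry2 (6.96), Etv1 (0.636) and Spry4 (0.0730). Dusp5 was thus first of the 10 in the control, seventh in clone 1 and sixth in clone 2.

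The makeup of each family moved with these levels. The summed level of Dusp4, Dusp5 and Dusp6 was 26.1 ± 1.07 RPKM in clone 1 and 47.8 ± 2.29 RPKM in clone 2, against 64.9 ± 0.534 RPKM in the control (SD, n = 3 each, as for the shares below). Dusp5 made up 19.3% ± 1.73 of it in clone 1 and 20.7% ± 0.550 in clone 2, against 50.7% ± 0.776 in the control. The share of Dusp4 was 47.2% ± 1.27 in clone 1 and 52.5% ± 0.806 in clone 2, against 25.3% ± 0.860 in the control. The most abundant of the 3 RNAs per length was therefore Dusp4 in both clones and Dusp5 in the control.

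For the PEA3 group the summed level was 15.5 ± 0.707 RPKM in clone 1 and 28.3 ± 1.43 RPKM in clone 2, against 34.9 ± 1.80 RPKM in the control. Etv4 held most of it everywhere, with 80.7% ± 1.86 in clone 1, 77.6% ± 0.390 in clone 2 and 70.8% ± 0.0741 in the control. Etv1 held 0.523% ± 0.108 in clone 1 and 0.00561% ± 0.00514 in clone 2, against 1.83% ± 0.103 in the control. Its exon union of 13296 bases is the longest of the members, and without a length correction its share was 2.08% in clone 1, 0.0224% in clone 2 and 6.83% in the control. The Sprouty and SPRED sum ran in the other direction, at 39.2 ± 0.979 RPKM in clone 1 and 34.0 ± 1.09 RPKM in clone 2, against 25.0 ± 0.733 RPKM in the control. Spry1 was 55.0% ± 1.11 of it in clone 1 and 45.6% ± 2.14 in clone 2, against 38.2% ± 1.67 in the control.

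**Figure D3:**
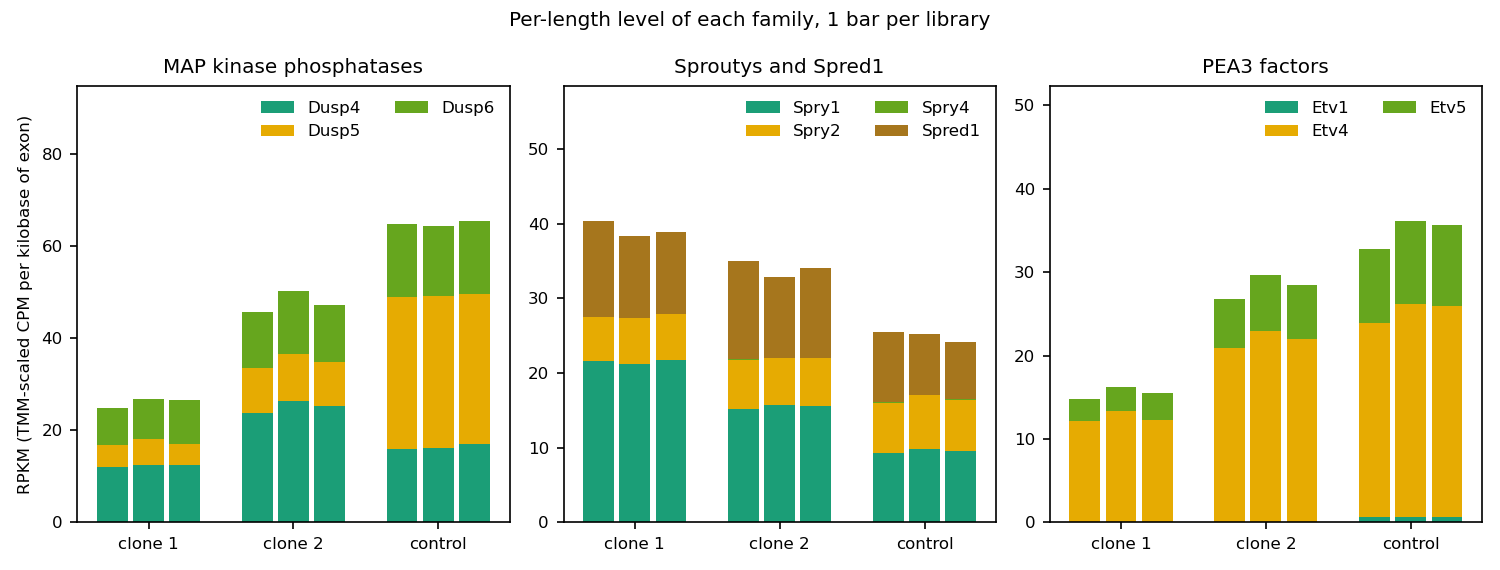
Level per kilobase of exon (RPKM, vertical axis from 0) of the DUSP, Sprouty and SPRED, and PEA3 genes, stacked by gene with 1 bar per library in clone 1, clone 2 and the control. The DUSP stacks average 26.1 and 47.8 RPKM in clones 1 and 2, against 64.9 RPKM in the control, and the Sprouty stacks 39.2 and 34.0 RPKM against 25.0 RPKM; Spry4, and Etv1 in the clones, are too low to be seen.

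Genes of a whole chromosome can differ together between clones of a tumour line, so each member was set beside the median of the tested genes on its chromosome. For Dusp5 that median was -0.45 in clone 1 and -0.46 in clone 2 (log2, 500 genes), which leaves the gene 2.26 and 1.27 below it. Etv1 lay on a chromosome with medians of -0.38 and -0.51, and its clone 1 value was 2.60 below the first of them. The chromosome of Spry1 had medians of 0.51 and 0.41, leaving the gene 0.66 and 0.29 above. For Dusp4 the medians were 0.35 in clone 1 and 0.14 in clone 2, and for Dusp6 they were 0.41 and 0.39. Those of Etv5 were 0.23 and 0.47, of Spry2 0.61 and 0.48, and of Spry4 0.37 and 0.24. The medians of Etv4 (0.03 and -0.00449) and Spred1 (-0.02 and -0.06) were near 0. All members kept the sign of their own log2 fold change, called or not, after subtraction of the median. The size moved both ways. Dusp5 and Spry1 came nearer to 0. Spry2 went from -0.21 in clone 1 and -0.12 in clone 2 to -0.81 and -0.60. Dusp6 went from -0.83 and -0.29 to -1.24 and -0.68. The part of these chromosome-wide differences in the members' values was not tested.

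The other genes of the pathway were then counted by role. In brackets, each count has beside it the shares of all genes called higher and lower, first in clone 1 and then in clone 2. Among 13 receptor tyrosine kinases, 10 were expressed highly enough to test. Clone 1 had 5 higher and 5 lower, and clone 2 had 4 higher and 5 lower of 10 (all genes: 37.9% and 38.6%, and 37.3% and 37.1%), with a median log2 fold change of 0.26 in clone 1 and -0.22 in clone 2. Fgfr1, a receptor for fibroblast growth factors, averaged 410 ± 3.27 CPM in clone 1 and 347 ± 7.08 CPM in clone 2, against 31.3 ± 3.92 CPM in the control (log2 fold changes 3.71 ± 0.08 and 3.47 ± 0.08, adjusted p = 7.64e-12 and 1.19e-11). Fgfr2, its epithelial relative, ran the other way, with 5.26 ± 0.374 CPM in clone 1 and 14.0 ± 1.63 CPM in clone 2, against 39.9 ± 2.22 CPM in the control (-2.92 ± 0.10 and -1.51 ± 0.09, adjusted p = 2.58e-10 and 4.47e-08). Pdgfra, the receptor of platelet-derived growth factor and also one of the fibroblast markers, rose, with 172 ± 2.02 CPM in clone 1 and 107 ± 4.13 CPM in clone 2, against 7.83 ± 0.392 CPM in the control (4.46 ± 0.06 and 3.77 ± 0.06, adjusted p = 2.40e-13 and 6.68e-13). Met, the hepatocyte growth factor receptor, fell, with 110 ± 1.52 CPM in clone 1 and 158 ± 8.67 CPM in clone 2, against 339 ± 15.3 CPM in the control (-1.62 ± 0.05 and -1.10 ± 0.05, adjusted p = 1.86e-10 and 4.95e-09).

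Of the ERBB receptors, Erbb2 rose, at 1034 ± 29.2 CPM in clone 1 and 1499.7 ± 75.6 CPM in clone 2, against 554 ± 55.0 CPM in the control (log2 fold changes 0.90 ± 0.07 and 1.44 ± 0.07, adjusted p = 4.41e-07 and 8.24e-09). The sources used here do not say whether reads of the Neu transgene were counted with mouse Erbb2. Its partner Erbb3 fell in both clones (-1.37 ± 0.08 and -1.31 ± 0.08, adjusted p = 1.64e-08 and 2.37e-08), as did Egfr (-0.31 ± 0.09 and -1.44 ± 0.09, adjusted p = 0.00739 and 5.51e-08). These receptors, and Dusp9, Ccnd1, Epha2, Fosl1 and Phlda1 below, were chosen after their values were seen.

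The cascade from adaptors to ERK comprised 20 genes, all tested, with 9 higher and 3 lower in clone 1, and 12 higher and 5 lower in clone 2 (all genes: 37.9% and 38.6%, and 37.3% and 37.1%). The count of 9 became 5 when control replicate 2 was left out. Medians were small, at 0.13 in clone 1 and 0.22 in clone 2. Ksr1, a scaffold that binds RAF and MEK, rose, with 64.1 ± 1.75 CPM in clone 1 and 44.0 ± 2.90 CPM in clone 2, against 11.1 ± 0.312 CPM in the control (log2 fold changes 2.53 ± 0.06 and 1.98 ± 0.06, adjusted p = 2.33e-11 and 1.60e-10). Mapk3, which encodes the kinase ERK1, fell, with 133 ± 7.67 CPM in clone 1 and 130 ± 5.69 CPM in clone 2, against 286 ± 36.8 CPM in the control (-1.11 ± 0.09 and -1.14 ± 0.09, adjusted p = 2.97e-07 and 2.48e-07). The adaptors Shc1 (0.73 ± 0.05 and 0.65 ± 0.05, adjusted p = 5.91e-08 and 1.90e-07) and Frs2 (0.89 ± 0.06 and 0.67 ± 0.06, adjusted p = 1.26e-07 and 1.62e-06) rose in both clones.

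Other dual-specificity phosphatases moved in both directions. Of 9 genes, Dusp2 had 0 counts and was not tested. Of the 8 tested, clone 1 had 3 higher and 4 lower, and clone 2 had 5 higher and 1 lower (all genes: 37.9% and 38.6%, and 37.3% and 37.1%), with medians of -0.13 and 0.61. Dusp1, an immediate-early gene whose product prefers the stress kinases p38 and JNK, rose, with 63.4 ± 4.13 CPM in clone 1 and 36.0 ± 1.67 CPM in clone 2, against 15.9 ± 0.955 CPM in the control (log2 fold changes 2.00 ± 0.07 and 1.18 ± 0.07, adjusted p = 3.99e-10 and 3.55e-08). Dusp3 rose in both clones (0.61 ± 0.05 and 0.75 ± 0.05, adjusted p = 2.77e-07 and 5.04e-08), and Dusp8 fell in both (-0.31 ± 0.07 and -0.43 ± 0.07, adjusted p = 0.00127 and 0.000112). Dusp9, which encodes a cytoplasmic ERK phosphatase, was at 5.89 ± 0.614 CPM in clone 1 and 0.131 ± 0.0366 CPM in clone 2, against 0.0722 ± 0.0443 CPM in the control. It rose in clone 1 (6.33 ± 0.30, adjusted p = 3.59e-09) and missed the threshold in clone 2 (0.86 ± 0.45, adjusted p = 0.107).

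Dusp16 and Dusp10, whose products act on JNK and p38, were called in opposite directions like Dusp4. Dusp16 averaged 45.6 ± 0.647 CPM in clone 1 and 86.3 ± 4.67 CPM in clone 2, against 51.8 ± 1.76 CPM in the control (log2 fold changes -0.18 ± 0.05 and 0.74 ± 0.05, adjusted p = 0.00935 and 2.15e-07). Dusp10 fell in clone 1 (-0.83 ± 0.07, adjusted p = 1.11e-06). Its rise in clone 2 (0.18 ± 0.07, adjusted p = 0.0427) was lost without control replicate 1 (0.11), control replicate 2 (0.16) or any 1 of the clone 2 libraries (0.17, 0.19 and 0.16 without replicates 1, 2 and 3), and in DESeq2 (0.16, adjusted p = 0.0697). The call was also lost with no filter on low counts (0.18), at least 1 CPM in 3 libraries (0.15) or only the 2 groups compared (0.18), and without replicate 1 of all groups (0.12).

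Further inhibitors of the pathway numbered 15, of which 14 were tested; Spry3 had 0 counts. Clone 1 had 5 higher and 7 lower, and clone 2 had 8 higher and 5 lower (all genes: 37.9% and 38.6%, and 37.3% and 37.1%), with medians of -0.07 and 0.29. Il17rd, also called Sef, an inhibitor of FGF signalling that belongs to the same expression group as the Sproutys in zebrafish embryos, had 4 counts in clone 1 over 3 libraries, against 1666 in the control. Its level was thus 394-fold lower in clone 1 (95% counting interval 154 to 1447, adjusted p = 4.82e-09). In clone 2 it was at 1.46 ± 0.257 CPM, against 7.44 ± 0.576 CPM in the control (log2 fold change -2.35 ± 0.22, adjusted p = 1.95e-06). Il17rd and Etv1 were each nearly absent from 1 clone and reduced in the other, and the clone differed. Pea15a, which keeps ERK in the cytoplasm, fell, with 166 ± 6.72 CPM in clone 1 and 381 ± 10.01 CPM in clone 2, against 478 ± 32.5 CPM in the control (-1.52 ± 0.06 and -0.33 ± 0.06, adjusted p = 6.31e-10 and 0.000267). Rasal2, a RAS GTPase-activating protein gene, and Cblb, a ubiquitin ligase gene, rose in both clones, by 0.73 ± 0.09 and 0.96 ± 0.09 (adjusted p = 2.45e-05 and 2.34e-06) and by 0.70 ± 0.06 and 0.87 ± 0.06 (adjusted p = 3.87e-07 and 5.52e-08).

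Opposite calls in this list were small. Spred2, the nearest relative of Spred1, was at -0.18 ± 0.05 in clone 1 (adjusted p = 0.00401) and 0.14 ± 0.05 in clone 2 (adjusted p = 0.0138). Clone 2 no longer passed without control replicate 2 (0.12), clone 2 replicate 2 (0.12) or clone 2 replicate 3 (0.13), or with at least 1 CPM in 3 libraries (0.11). Rasa2, a RAS GTPase-activating protein gene, was at -0.38 ± 0.16 in clone 1 and 0.38 ± 0.16 in clone 2, with adjusted p values of 0.0497 and 0.0489. Clone 1 no longer passed without control replicate 1 (-0.26), clone 1 replicate 2 (-0.40), clone 1 replicate 3 (-0.26) or clone 2 replicate 3 (-0.38). Clone 2 no longer passed without control replicate 2 (0.32), control replicate 3 (0.31), clone 1 replicate 2 (0.38), clone 2 replicate 1 (0.21) or clone 2 replicate 3 (0.42). Both Rasa2 calls were also lost with total counts without TMM (-0.40 in clone 1 and 0.37 in clone 2). That of clone 2 was lost with at least 1 CPM in 3 libraries (0.34).

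Regulators of the PEA3 proteins and of their targets were tested as a list of 7. Clone 1 had 4 higher and 3 lower, and clone 2 had 3 higher and 3 lower (all genes: 37.9% and 38.6%, and 37.3% and 37.1%), with medians of 0.33 and 0.19. Cic, the gene of the Capicua repressor, averaged 188 ± 6.27 CPM in clone 1 and 186 ± 7.71 CPM in clone 2, against 262 ± 19.9 CPM in the control (log2 fold changes -0.47 ± 0.06 and -0.49 ± 0.06, adjusted p = 2.19e-05 and 1.78e-05). Its cofactor gene Atxn1l rose in both (0.89 ± 0.05 and 0.19 ± 0.05, adjusted p = 1.30e-08 and 0.00393). The ETS repressors Erf and Etv3 parted. Erf fell (-1.03 ± 0.06 and -0.70 ± 0.06, adjusted p = 1.80e-08 and 5.44e-07) and Etv3 rose (0.71 ± 0.07 and 0.29 ± 0.07, adjusted p = 2.67e-06 and 0.00272).

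Of 14 other genes known to respond to ERK, all tested, 6 were higher and 8 lower in clone 1, and 3 higher and 6 lower in clone 2 (all genes: 37.9% and 38.6%, and 37.3% and 37.1%), with medians of -0.38 and -0.16. The immediate-early transcription factors moved in different directions. Fosb fell, with 0.412 ± 0.0965 CPM in clone 1 and 0.838 ± 0.107 CPM in clone 2, against 10.9 ± 0.643 CPM in the control (log2 fold changes -4.71 ± 0.17 and -3.70 ± 0.16, adjusted p = 4.56e-10 and 1.63e-09). Egr2 rose, with 25.0 ± 1.83 CPM in clone 1 and 9.25 ± 1.60 CPM in clone 2, against 2.88 ± 0.291 CPM in the control (3.12 ± 0.14 and 1.68 ± 0.14, adjusted p = 2.38e-09 and 4.87e-07). Egr3 rose by 3.07 ± 0.27 and 2.07 ± 0.28 (adjusted p = 9.26e-07 and 3.39e-05). Ier2 was called in opposite directions, at 0.28 ± 0.08 in clone 1 (adjusted p = 0.0111) and -0.51 ± 0.09 in clone 2 (adjusted p = 0.000220), and clone 1 no longer passed without its replicate 3 (0.21, adjusted p = 0.0531).

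Receptor and cell cycle genes of the same list were measured too, with Phlda1 and Fosl1. Of those given next, all but Epha4 were chosen after their values were seen, and they do not stand for the list. Of its 14 genes, 6 were higher in clone 1 and 3 in clone 2 (all genes: 37.9% and 37.3%), and not all of those are named here. Epha2, an ephrin receptor gene, had 98.2 ± 7.52 CPM in clone 1 and 86.1 ± 5.35 CPM in clone 2, against 290 ± 9.20 CPM in the control (log2 fold changes -1.56 ± 0.07 and -1.75 ± 0.07, adjusted p = 1.55e-09 and 6.28e-10). Epha4 fell too (-1.51 ± 0.16 in clone 1 and -3.34 ± 0.18 in clone 2, adjusted p = 4.39e-06 and 1.31e-08). Ccnd1, the cyclin D1 gene, averaged 818 ± 39.3 CPM in clone 1 and 1149.9 ± 10.3 CPM in clone 2, against 1403 ± 31.4 CPM in the control (-0.78 ± 0.05 and -0.29 ± 0.05, adjusted p = 6.21e-08 and 0.000285). Phlda1 and Fosl1 fell in clone 1 (-0.56 ± 0.08 and -0.45 ± 0.08, adjusted p = 8.44e-05 and 0.000189) and missed the threshold in clone 2 (-0.16 ± 0.08 and 0.02 ± 0.07, adjusted p = 0.110 and 0.795).

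**Figure D4:**
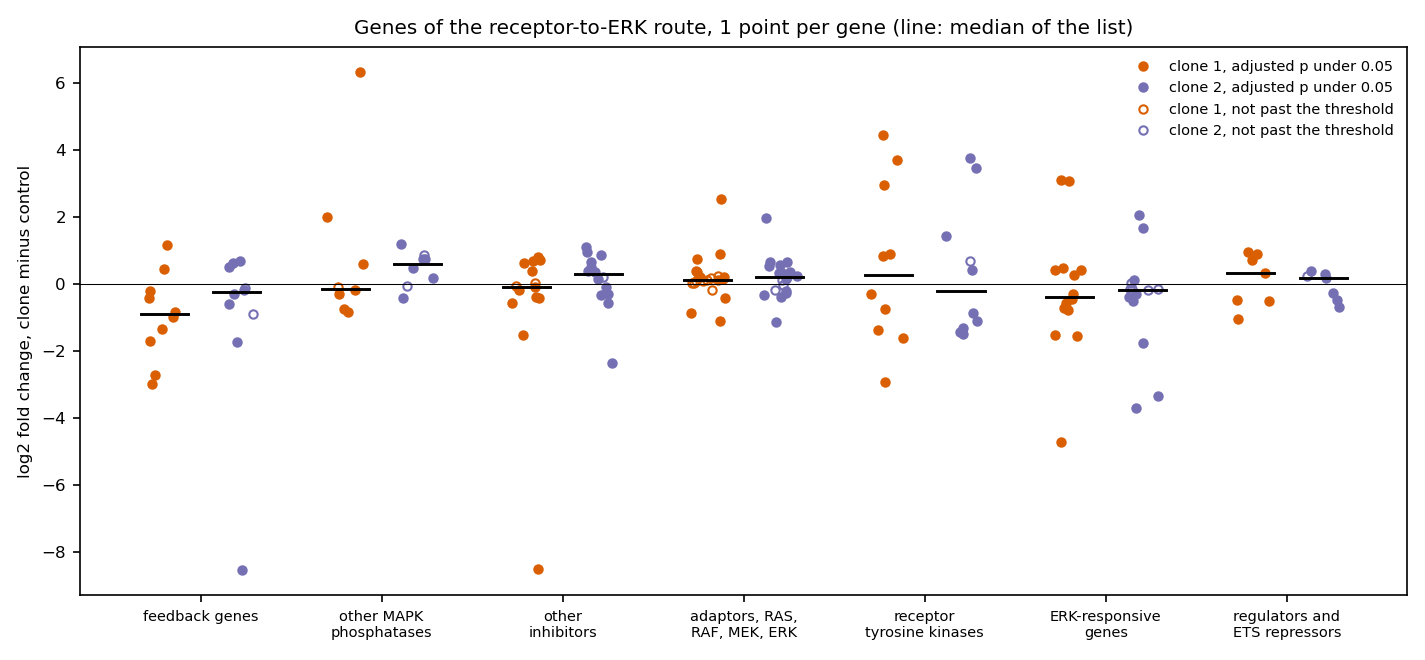
Log2 fold change against the control of every tested gene in the feedback list and the 6 other pathway lists, with clone 1 left of clone 2 in each list; points are genes, open where the test was not passed, and lines the medians. The feedback genes have medians of -0.91 and -0.23, and the other phosphatases -0.13 and 0.61.

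The genes whose pattern over the 9 libraries lay nearest to each member were found by the Euclidean distance of centred log2 CPM, among 10461 genes at 5 CPM or more in a group (10462 for Spry4). For Dusp6 they were Nek2 (0.171), Ccnd1 (0.185) and Cinp (0.188). For Dusp5 they were Tigit (0.209), Plxnb1 (0.290) and Eps8l2 (0.378), and for Dusp4 Gusb (0.145), Epn3 (0.161) and Tnfrsf10b (0.162). Spry1 lay nearest to Arnt (0.0954), Fosl2 (0.108) and Slc7a6 (0.109), Spry2 to Ywhae (0.0453), Slc25a5 (0.0489) and Emc6 (0.0754), and Spred1 to Tbc1d23 (0.108), Cyb5r4 (0.149) and Fubp3 (0.152). Etv4 was nearest to Camk1 (0.173), Plekha2 (0.189) and Obsl1 (0.205), and Etv5 to Tes (0.192), Nbeal2 (0.225) and Eno3 (0.285). Etv1 and Spry4 had no close neighbours. The nearest to Etv1 were Epb41l4a (1.33), Fmnl1 (1.98) and Map3k9 (2.09), and to Spry4 Coa4 (0.820), Poll (0.835) and Zfp3 (0.837). With 3 groups, a small distance means little more than similar levels in each group.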

How the data were processed

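RNA was measured in 3 groups of 3 libraries. The deposited values are raw counts per gene, whole numbers with no normalization, and the authors used fastp, Subread and DESeq2 with the mouse builds mm10 and GRCm38, per the submitters' processing notes, which give no versions. Which annotation was counted, and with which strand setting, is not given here by any source used. Strand, polyA enrichment and the TRIzol and RNeasy extraction are per the labels' protocols.

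The deposited counts were fitted with edgeR 4.0.16 (R 4.3.3). The filter filterByExpr (minimum count 10) left 13928 genes, all 10 members among them, and scaled by TMM. The quasi-likelihood model held 1 factor of 3 groups over all 9 libraries, and p-values were Benjamini-Hochberg adjusted over all genes of a contrast. The SE of a log2 fold change is its size divided by the root of its F statistic. The common biological coefficient of variation was 0.0878. Both clone contrasts share the control libraries. Ratios with under 10 counts in a group carry a 95% interval for counting error only, as the libraries had no stated molecular identifiers and reads may not be independent molecules. RPKM is TMM-scaled CPM per kilobase of the GENCODE M21 exon union. The fit was tested on simulated data.

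Alternatives were total counts without TMM, DESeq2 1.42.0, no filter, at least 1 CPM in 3 libraries, only the groups compared, a replicate block, each library left out, and glmTreat. Leaving out replicate 1 of every group was added after the data were seen. Same-numbered libraries deviated together in 9 of 9 pairs between groups (r 0.246 to 0.763), so the numbers were taken to pair them. Only 6 of the 9 libraries went best with their own number, and the labels do not say what a number shares. The main model does not use this pairing, and the replicate block does. Named list genes were the 4 with the largest mean change among those called in both clones, and those called in opposite directions. The members and lists were chosen with earlier results of these data known. A gene of these lists is not reported here by name; counts of list members include it.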

Additional observations from a re-analysis of the deposited data

Results flagged for a closer look

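Of the 10 feedback genes, 7 differed between the 2 knockout clones by the test of clone 2 against clone 1 over all genes (edgeR quasi-likelihood test), where 30.1% of all genes were called higher and 27.5% lower. With those shares added, 7 of 10 is near the background, and nothing particular to these genes is read from it. The log2 difference was 1.03 for Dusp4, 0.97 for Dusp5, 0.55 for Dusp6, 0.81 for Etv4, 1.12 for Etv5, -0.47 for Spry1 and -5.56 for Etv1, the last from 5 counts in clone 2 against 226 in clone 1. Each clone is 1 line, so clonal and other differences between them cannot be told apart.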

How the results depend on the processing

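Member counts were the same under every alternative that kept the call rule and every library, other than a stricter filter: total counts without TMM, DESeq2, no filter, the 2 groups alone and the replicate block. With the replicate block, 2 members rose and 8 fell in clone 1, 3 rose and 5 fell in clone 2, 2 rose and 5 fell in both, and 1 was opposite; without replicate 1 of all groups these counts were the same. The block changed no call of a member. Requiring at least 1 CPM in 3 libraries removed Spry4 and left 27 of the 30 member values, none of which changed its call. With glmTreat, 1 member was higher and 3 were lower in clone 1, 0 higher and 2 lower in clone 2, 0 higher and 2 lower in both, 0 opposite, and 0 higher and 1 lower in clone 2 than in clone 1; this test asks for a larger change. Leaving out 1 library at a time changed 10 calls of members in all, in Spry2, Spry4 and Etv4, and reversed no direction; 6 to 8 members then fell in clone 1, 4 to 6 in clone 2 and 4 to 6 in both. The number of cascade genes higher in clone 1 was 5 to 11 when a library was left out. Depth limits Spry4 (6 to 34 counts a library) and Etv1 in clone 2 (0 to 3 counts).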
